A study of Mus musculus with 12 samples.

Results

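The clustered protocadherins are 3 neighbouring gene families on mouse chromosome 18, named alpha, beta and gamma. They were taken as every gene whose symbol starts with Pcdha, Pcdhb, Pcdhga, Pcdhgb or Pcdhgc followed by a number, or with Pcdhac. The rule found 56 of the 18208 genes in the RNA-seq table, of which 13 belonged to the alpha, 22 to the beta and 21 to the gamma cluster. In the table of hnRNP H binding the same names covered 795 of 147438 distinct peak positions. The GENCODE M21 annotation held 57 such symbols, and one of them, Pcdhgb8, was not among the RNA-seq rows.

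Clustered protocadherins are cell-surface cadherins that bind like copies of themselves on other cells, and each neuron makes a different mix of them, which lets a neuron recognise its own branches. Each alpha or gamma mRNA starts with 1 variable exon, which has its own promoter and encodes the extracellular, transmembrane and proximal cytoplasmic parts. That exon is spliced to constant exons that all members of the cluster share. Beta genes have a single coding exon and no constant exons. The C-type members, Pcdhac1, Pcdhac2, Pcdhgc3, Pcdhgc4 and Pcdhgc5, lie at the 3′ ends of the alpha and gamma clusters and are known to be less restricted to single neurons than the alternately chosen members. hnRNP H is an RNA-binding protein that regulates splicing and polyadenylation and prefers runs of G.

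All mice were wild-type C57BL/6J animals from a colony segregating an Hnrnph1 mutation, aged 50 to 100 days, and the sequenced tissue was striatum. Every mouse received saline (10 ml/kg, intraperitoneal) on days 1 and 2. On day 3 the saline group received saline again and the methamphetamine group received methamphetamine (2 mg/kg, intraperitoneal), and striata were collected 30 min later. There were 3 pools per treatment, each of 4 mice (2 female, 2 male), and each pool gave 1 RNA-seq library and 1 CLIP-seq library. In CLIP-seq, RNA cross-linked to a protein is purified with it and sequenced, and here the complexes came from the stretch of a blot membrane at 50 to 75 kDa.

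RNA-seq libraries held 3935160 to 5091839 reads and CLIP-seq libraries held 423057 to 1635338 reads in peaks. The main axis of variation in the RNA-seq libraries, 65.6% of the variance over 7853 genes, did not follow treatment. It put saline replicates 1 and 3 with methamphetamine replicate 2, here called set A. Replicate 2 of saline fell with replicates 1 and 3 of methamphetamine, here called set B. No label names these sets. All 10 markers of striatal projection neurons were detected in every library, with a summed level of 5640 to 8863 CPM (a library's reads scaled to a total of 1000000). The 6 choroid plexus markers summed to 60.8 to 224 CPM in 5 libraries and to 4913 CPM in methamphetamine replicate 2.

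The alpha and gamma members were not taken as separate measurements, because they share constant exons and, for most members, apparently most of their reads. How shared reads were counted is not given, so this is inferred from the near-equal counts below. All 13 alpha members share constant exons of 59, 89 and 2712 nt in GENCODE M21, and the gamma members share constant exons of 59, 89 and 1968 nt. The longest gamma constant exon, at chr18:37839903-37841870 on the plus strand of mm10, holds the end of the coding sequence and the 3′ untranslated region. In saline replicate 1 the gamma members had 898 reads (Pcdhga1) to 1296 reads (Pcdhgc5). Over the 6 libraries the lowest gamma member held 63.1% to 73.1% of the reads of the highest member and 94.2% to 96.5% of the median member. The lowest alpha member held 35.5% to 44.3% of the highest and 79.7% to 90.8% of the median. Pcdhac2 and Pcdha11 stood apart, with 54.2% to 64.5% and 55.7% to 64.0% of their reads above the lowest member of the cluster. Beta members, with little shared exon, spread far more: the lowest, Pcdhb1, had 1 to 4 reads and the highest had 70 to 96. The plot of all member levels shows the same rise and fall from library to library repeated across every alpha and gamma member.

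**Figure D1:**
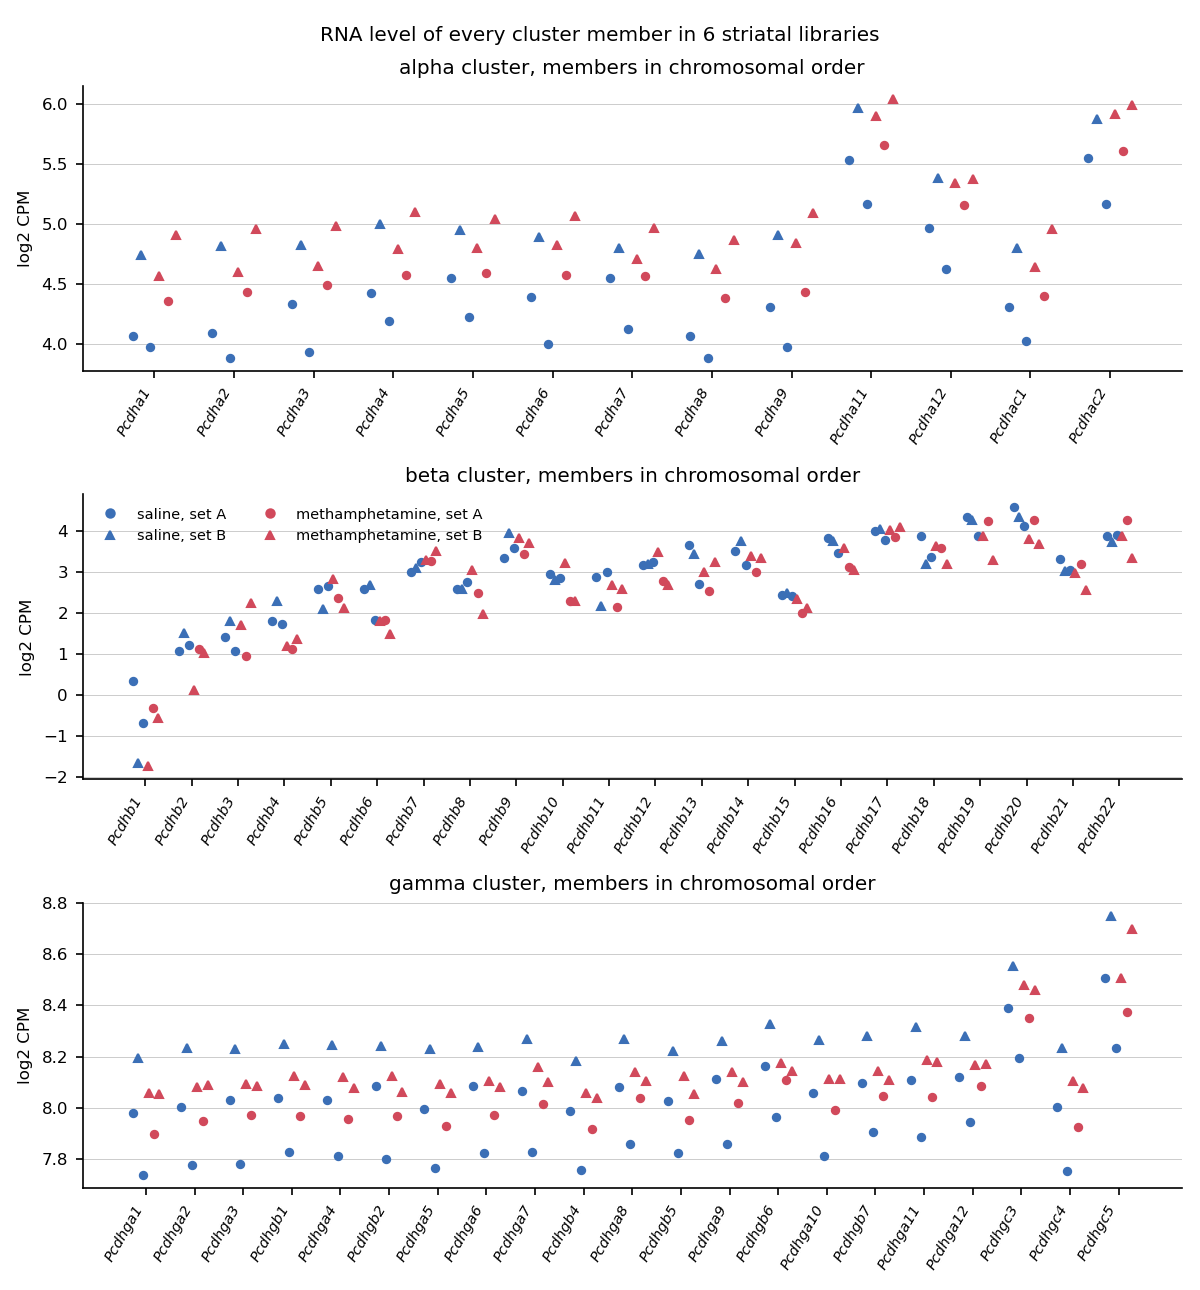
RNA level of each member (log2 CPM, vertical axis) in each of 6 libraries, with members along the horizontal axis in chromosomal order, colour giving the treatment and shape the library set. The 21 gamma members repeat a single pattern at a similar height, while beta members differ from each other, down to Pcdhb1 with 1 to 4 reads.

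For alpha and gamma members, the reads above the lowest member of the cluster were taken as specific to a member, and for beta members all reads were taken. These reads were divided by the length of exon that no other cluster gene shares. By this rule the lowest member of a library has no specific reads, and any reads of its own are subtracted from the whole cluster. Reads in exon shared by only some members stay in the count, while that exon is left out of the length. Alpha and gamma levels are therefore rough and not on the same footing as beta levels. On this scale each cluster was led by a few genes, most of them toward its 3′ end. In the gamma cluster Pcdhgc3 stood at 25.4 CPM per kb, Pcdhgc5 at 20.7 and Pcdhgb6 at 11.8, against a cluster median of 5.11. In the alpha cluster Pcdhac2 stood at 10.1 CPM per kb, Pcdha12 at 5.64 and Pcdha11 at 4.40, against a median of 1.24. The Pcdha11 value rests on 2 annotated genes that carry this symbol. In the beta cluster Pcdhb20 stood at 5.05 CPM per kb, Pcdhb9 at 4.12 and Pcdhb17 at 3.36, against a median of 2.03, and Pcdhb1 was lowest at 0.21. The alpha and gamma order depends on this scale, which was chosen after the values were seen. On total reads per kb of unshared exon Pcdha11 ranked 13 of 13, Pcdhgc3 12 of 21 and Pcdhgc5 19 of 21.

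Pcdhgc3 was the steadiest of the leading genes on the deposited scale. Its specific level was 82.6, 85.3 and 79.6 CPM in saline replicates 1, 2 and 3, and 90.9, 88.2 and 89.3 CPM in methamphetamine replicates 1, 2 and 3. The groups did not overlap on this derived measure (82.5 ± 2.88 against 89.5 ± 1.38 CPM, SD, n = 3 each), which was looked at after the other values were known and was not tested. On the same measure the other alpha and gamma members overlapped between the groups. The separation of Pcdhgc3 depends on the library scale. Saline replicate 2 held 404 specific reads and methamphetamine replicate 2 held 386, although the saline library was smaller (4698135 against 4882772 reads). Divided by these read totals, saline replicate 2 would lie above methamphetamine replicate 2. Even a full separation of 3 against 3 libraries gives an exact two-sided permutation p no smaller than 0.1. The total level of Pcdhgc3, shared reads included, overlapped between the groups and was 335 ± 41.5 against 345 ± 16.3 CPM (SD, n = 3 each).

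Pcdhgc5, the last gamma gene, varied more. Its specific level was 112, 140 and 88.0 CPM in the saline libraries and 98.1, 93.6 and 153 CPM in the methamphetamine libraries. Saline replicate 2 and methamphetamine replicate 3 were the highest, and the treatments overlapped. Pcdhgc5 held 19.9% to 34.7% of the gamma reads above the lowest member, and Pcdhgc3 held 17.3% to 21.5%. Pcdhgb6, a gamma B-type member, ranged from 20.1 CPM in methamphetamine replicate 3 to 37.2 CPM in methamphetamine replicate 2, so the extremes lay within a single treatment.

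The other C-type members were low. Pcdhgc4, which is known to be needed for the survival of neurons, had a specific level of 3.93, 10.8 and 2.48 CPM in saline and 8.79, 4.34 and 7.52 CPM after methamphetamine. Per kb of unshared exon this was 1.81 CPM, rank 19 of 21 in its cluster. Pcdhac1 stood at 0.62 CPM per kb, rank 10 of 13. Pcdhac2, the last alpha gene and the C-type member known for serotonergic axons, had specific levels of 30.1, 32.1 and 21.1 CPM in saline and 36.6, 28.3 and 34.5 CPM after methamphetamine. Its share of the alpha reads above the lowest member stayed between 28.2% and 32.1% in the 6 libraries. Within the C-type group the levels therefore ran from Pcdhgc3 and Pcdhgc5, through Pcdhac2, to Pcdhgc4 and Pcdhac1. The ranges of Pcdhgc3 and Pcdhgc5 overlapped.

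Specific levels tended to rise along each cluster in the direction of transcription. Spearman's rho between position and level per kb was 0.51 over 13 alpha members, 0.60 over 22 beta members and 0.56 over 21 gamma members. It was 0.55 over 11 alpha and 0.64 over 18 gamma members when the C-type genes were left out. These values are descriptions across genes measured in the same libraries, and neighbouring genes are not independent.

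**Figure D2:**
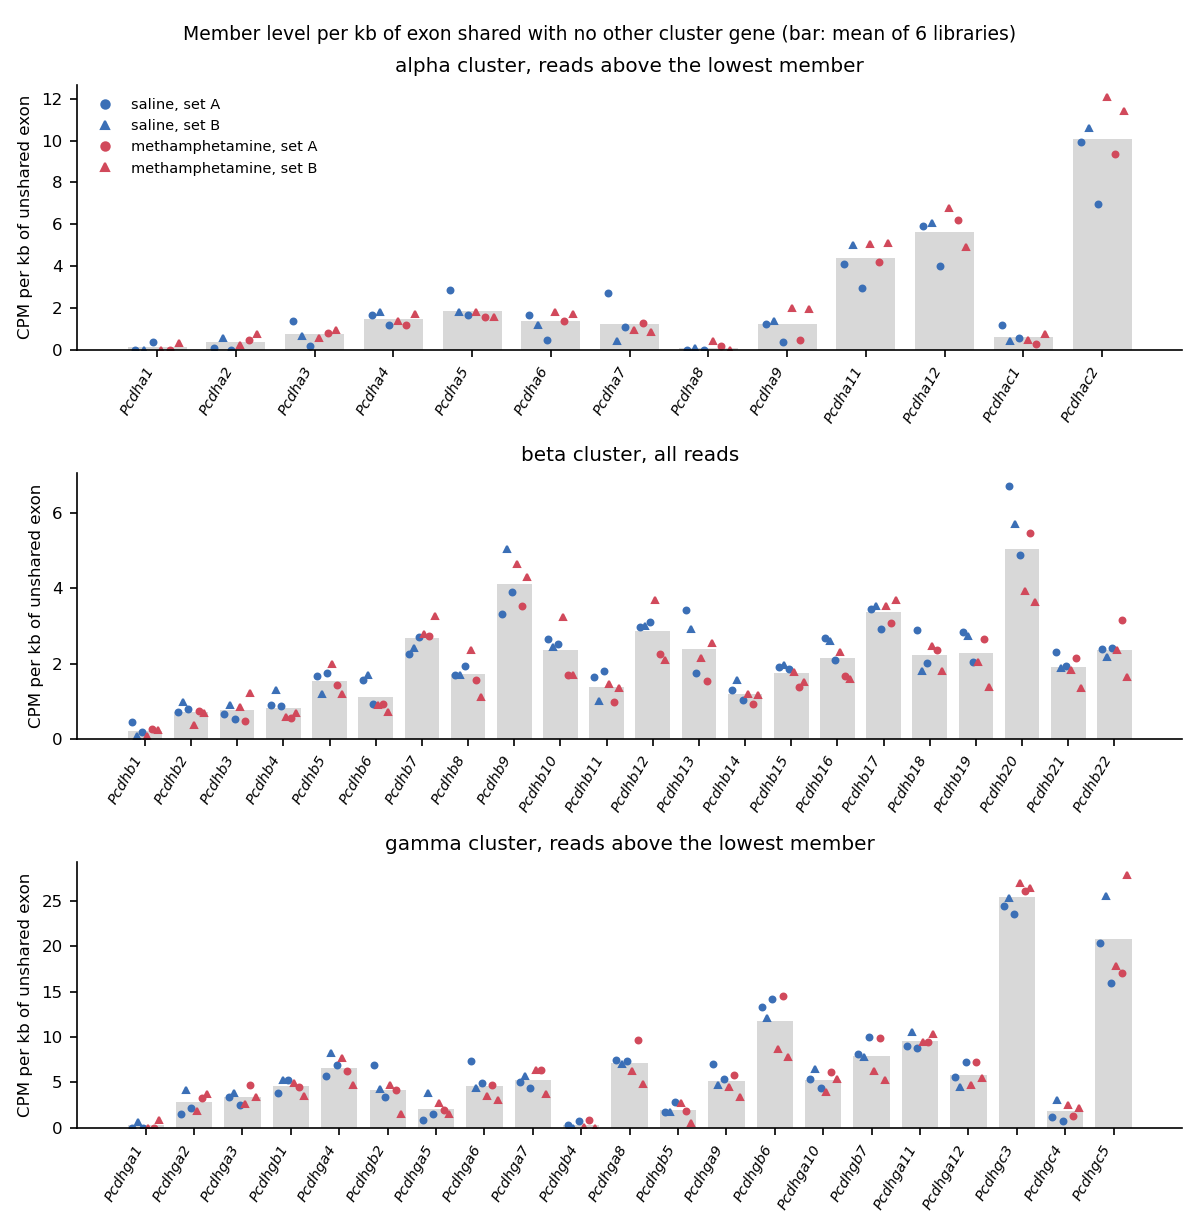
Level per kb of unshared exon (CPM per kb, vertical axis) for members in chromosomal order, with grey bars for the mean of 6 libraries and points for the libraries. Alpha and gamma values use reads above the lowest member of the cluster, and the tallest bars are Pcdhac2, Pcdhb20 and Pcdhgc3, at 10.1, 5.05 and 25.4 CPM per kb.

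The first question was whether acute methamphetamine changed the RNA level of any member. No gene of the 18208 passed an adjusted p of 0.05 in limma (Benjamini-Hochberg), so percent called was 0 for members and for all genes. At an unadjusted p under 0.05 there were 276 genes by limma (1.52%, with 0.555% higher and 0.961% lower after methamphetamine) and 109 of 13299 by edgeR on recovered reads, and none of the members was among either. In a pooled tissue a lower level can come from fewer cells of a type or from less RNA per cell, and these cannot be told apart here. Because the labels describe pools of mice, p-values measure the spread between pools.

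Beta members mostly lay lower after methamphetamine, though no single difference passed the test. Of 22 beta members 18 had a negative and 4 a positive fitted change, with a median of -0.22 on the log2 CPM scale, while 50.4% of all genes had a positive change and their median was 0.00198. Every methamphetamine library was below every saline library for 3 beta members, Pcdhb4, Pcdhb6 and Pcdhb15, and above for Pcdhb7. Over all genes such separation occurred in 3.58% (below) and 2.44% (above). The 10 striatal projection neuron markers also all had a negative change, with a median of -0.23, and summed to 6421 to 8863 CPM in saline and 5640 to 7636 CPM after methamphetamine. Their part in the beta changes was not tested. Pcdhb15 and Pcdhb7 are named only for this separation, after their values were seen.

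Pcdhb4, a beta cadherin near the 5′ end of its cluster (chr18:37307455-37311172), had the smallest unadjusted p of the members. It was at 3.37, 4.86 and 3.22 CPM in saline replicates 1, 2 and 3 and at 2.20, 2.06 and 2.51 CPM in the methamphetamine replicates. The libraries did not overlap, and these values rest on only 9 to 23 reads each. The limma change was -0.72 ± 0.38 (SE), with an unadjusted p of 0.0872 and an adjusted p of 0.9998, and the adjusted p lay between 0.777 and 0.99998 under the alternatives tried. Its unadjusted limma p was 0.0196 with eBayes without trend and 0.0402 with the library set as a covariate. In those fits 518 and 541 of 18208 genes had an unadjusted limma p under 0.05. Within set A the change of Pcdhb4 was -0.66 and within set B it was -1.02.

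Pcdhb6 (chr18:37333921-37337674) was at 5.90, 6.34 and 3.47 CPM in saline and at 3.40, 3.43 and 2.70 CPM after methamphetamine. Saline replicate 3 lay next to the methamphetamine libraries. The change was -0.67 ± 0.37 (SE, limma adjusted p = 0.9998). Leaving out saline replicate 3 moved it to -0.94, and the within-set changes were -0.40 (set A) and -1.04 (set B). Without saline replicate 3 the unadjusted limma p of Pcdhb6 was 0.0409, in a fit where 368 of 18208 genes were under 0.05.

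Pcdhb20, the highest beta gene per kb (chr18:37504264-37507822), was at 23.9, 20.3 and 17.4 CPM in saline and at 14.0, 19.4 and 12.9 CPM after methamphetamine. Methamphetamine replicate 2 lay inside the saline range. The change was -0.42 ± 0.24 (SE, limma adjusted p = 0.9998), and it was -0.07 within set A and -0.59 within set B. Without methamphetamine replicate 2 the unadjusted limma p of Pcdhb20 was 0.0417, in a fit where 958 of 18208 genes were under 0.05. Pcdhb16 was at 14.1, 13.5 and 10.9 CPM in saline and at 12.0, 8.68 and 8.29 CPM after methamphetamine, with a change of -0.42 ± 0.26 (SE). The other leading beta genes hardly differed: Pcdhb9 stood at 12.5 ± 2.70 against 12.7 ± 1.77 CPM, and Pcdhb17 at 15.4 ± 1.53 against 16.0 ± 1.43 CPM (SD, n = 3 each).

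Alpha members all had a positive fitted change, from 0.23 to 0.40 with a median of 0.31, but they share reads, and the treatments overlapped in 13 of 13 cases. Pcdha6 had the smallest unadjusted p among them (0.161). It was at 20.8, 29.6 and 15.9 CPM in saline and at 28.2, 23.8 and 33.4 CPM after methamphetamine, a change of 0.39 ± 0.26 (SE, limma adjusted p = 0.9998). Pcdhac2 changed by 0.31 ± 0.21, Pcdha11 by 0.31 ± 0.22, Pcdha12 by 0.30 ± 0.22 and Pcdhac1 by 0.29 ± 0.25 (SE). With the library set as a covariate the changes were smaller, at 0.22 for Pcdha6, 0.16 for Pcdhac2, 0.16 for Pcdha11, 0.17 for Pcdha12 and 0.12 for Pcdhac1. Leaving out 1 replicate at a time gave 0.11 to 0.63 over these 5 genes. Summed cortical excitatory neuron markers stood at 186 to 537 CPM in saline and 444 to 856 CPM after methamphetamine, with 7 of 8 changes positive. The striatal projection neuron markers given beside the beta members had 10 of 10 negative. Interneuron, astrocyte, oligodendrocyte and microglia markers each had 5 of 5 positive. Choroid plexus markers had 5 of 6 positive, endothelial markers 3 of 4 and markers of afferent cell bodies 2 of 3. Their part in the alpha change was not tested. Saline replicate 2 moved the alpha values most. Without it 9 of 13 alpha members had an unadjusted limma p under 0.05, but none had an adjusted p under 0.769. In that fit 928 of all 18208 genes had an unadjusted limma p under 0.05, against 276 with all libraries. The 9 members share reads, so they are not separate measurements.

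Gamma members hardly moved. Their fitted changes ran from -0.01 (Pcdhgb6) to 0.05 (Pcdhgc3), with standard errors near 0.16 to 0.19 for the named members, and all 21 overlapped between treatments. Pcdhgc5 changed by 0.03 ± 0.19 and Pcdhgc4 by 0.04 ± 0.17 (SE). The signs of these small values are not stable: 20 of 21 gamma members were positive on the deposited scale, 14 of 21 with DESeq2 size factors, and 0 of 21 with the library set as a covariate.

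**Figure D3:**
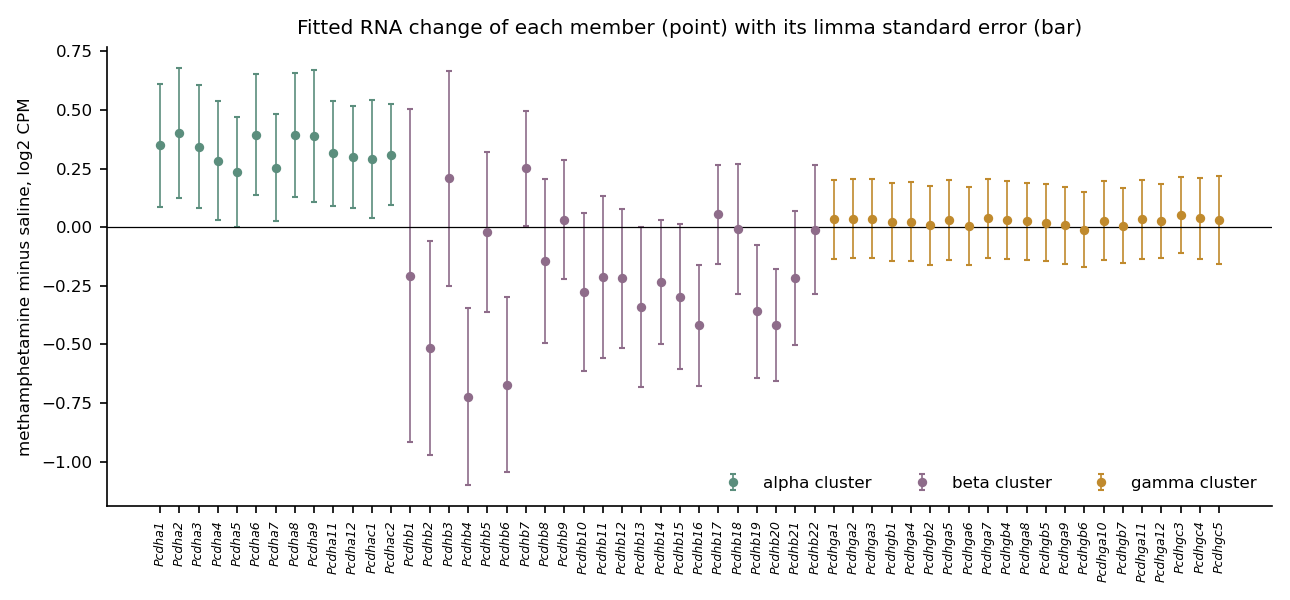
Fitted change of each member after methamphetamine (methamphetamine minus saline, log2 CPM, vertical axis), with bars of 1 limma standard error. Alpha points lie between 0.23 and 0.40, gamma points between -0.01 and 0.05, and beta points scatter from -0.72 to 0.25, with 18 of 22 below 0.

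Summed over members, the alpha cluster stood at log2 8.33, 8.81 and 8.01 (log2 of summed CPM) in the saline libraries and at 8.72, 8.48 and 8.93 in the methamphetamine libraries. The treatments overlapped, with a difference of 0.32 (exact two-sided permutation test, p = 0.3, n = 3 each, smallest possible p 0.1). The difference was 0.31 within set A and 0.01 within set B. Without saline replicate 2 it was 0.54 and without saline replicate 3 it was 0.14. The beta cluster stood at 7.72, 7.66 and 7.50 in saline and at 7.58, 7.46 and 7.31 after methamphetamine. Its difference was -0.17 (exact permutation p = 0.2, n = 3 each), and it was -0.15 within set A and -0.21 within set B. The gamma cluster stood at 12.49, 12.69 and 12.26 in saline and at 12.55, 12.42 and 12.54 after methamphetamine, a difference of 0.03 (exact permutation p = 0.8, n = 3 each) that turned to -0.14 within set B.

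If shared reads were given to every member, as inferred from the near-equal counts, these sums count a shared read once for every member. With the lowest member counted once, plus the reads above it, the alpha cluster held 82.1 to 139 CPM and the gamma cluster 642 to 785 CPM, beside 159 to 211 CPM for the beta cluster. On that count the gamma difference was -0.02 and the alpha difference 0.24.

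Alpha and gamma levels followed the library sets more closely than the treatment. In set A the summed alpha level was 8.01 to 8.48 and the gamma level 12.26 to 12.49. In set B they were 8.72 to 8.93 and 12.54 to 12.69. Every set B library lay above every set A library for 13 of 13 alpha and 16 of 21 gamma members, which count the same shared reads, but for only 3 of 22 beta members. That order occurred in 19.9% of all genes. The opposite order, every set B library below every set A library, held for 2 of 22 beta, 0 alpha and 0 gamma members. It occurred in 18.9% of all genes. The median difference, set B minus set A, was 0.57 for alpha, 0.21 for gamma and -0.04 for beta members on the log2 scale. Since the sets were read from these libraries, no test is given.

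Markers of other cells moved with the sets as well. The 8 cortical excitatory neuron markers summed to 186 to 444 CPM in set A, against 454 to 856 CPM in set B. The 5 astrocyte markers summed to 463 to 575 against 646 to 770 CPM, the 5 microglia markers to 206 to 226 against 242 to 281 CPM, and the 4 endothelial markers to 46.7 to 68.2 against 75.2 to 104 CPM. The 10 striatal projection neuron markers ran the other way, at 7636 to 8863 CPM in set A, against 5640 to 6421 CPM in set B. The sets overlapped for the 5 oligodendrocyte markers (4335 to 10561 against 5868 to 10772 CPM), the 5 interneuron markers (323 to 383 against 380 to 621 CPM) and the 3 markers of afferent cell bodies (3.72 to 7.08 against 5.98 to 12.0 CPM). Slc6a4, the serotonin transporter, and Kcne2, of the choroid plexus list, were the markers with 0 reads in at least 1 library. Their part in the alpha and gamma levels was not tested.

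**Figure D4:**
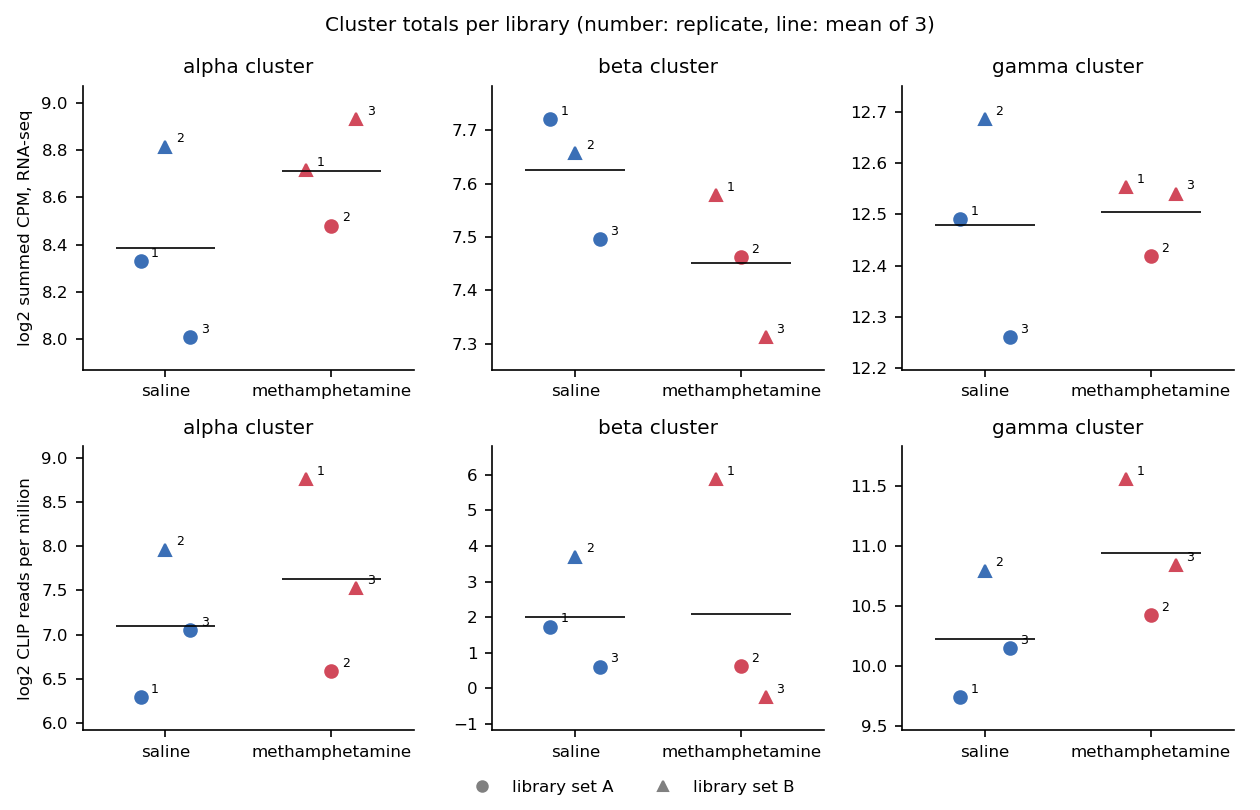
Cluster totals by library, with log2 summed CPM in RNA-seq above and log2 CLIP CPM of peak reads below, numbered by replicate, shaped by library set and with lines at the mean of 3. In the upper row the set B libraries of the alpha cluster lie at 8.72 to 8.93, above set A at 8.01 to 8.48, and in the lower row methamphetamine replicate 1 is the highest library in each cluster.

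The genes that regulate or serve the clusters gave no call either. Of 16 genes for the chromatin machinery of the clusters, which includes the insulator protein CTCF, cohesin and the silencers Smchd1 and Setdb1, 10 had a positive and 6 a negative change, and none had an unadjusted limma p under 0.05. Of 19 partner and signalling genes, among them the kinases Ptk2 and Ptk2b that bind protocadherin tails and the WAVE complex, 9 were positive and 10 negative, again with none under 0.05. Of 13 measured non-clustered protocadherins and relatives, 9 were positive and 4 negative, with none under 0.05. The median changes of these lists were 0.13, -0.02 and 0.06, beside 0.00198 for all genes. The share of all genes under 0.05 was 1.52%.

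hnRNP H reads in the clusters were few. The 795 positions named for members fell into 104 runs of overlapping positions, and 68 positions were listed under 2 member names. Where near-identical positions could be compared, 72 of 75 pairs up to 3 nt apart had counts within 10% of each other, so positions with nearly the same start hold mostly the same reads. Positions farther apart in a run can hold different reads, so 1 position per run does not count every read of it. Counting 1 position per run, the one with the most reads, gave 111, 102 and 207 reads in saline replicates 1, 2 and 3 and 344, 127 and 118 reads in methamphetamine replicates 1, 2 and 3. Over the 6 libraries 23 of 104 runs had at least 10 reads, 7 had reads in every library, and 27 had reads in a single library. The gamma cluster held 64 runs, the alpha cluster 25 and the beta cluster 15.

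Each run was placed by where the midpoints of most of its positions lay. Gamma introns then held 36 runs and 29.2% of the member reads, gamma variable or other exons held 23 runs and 27.7%, and the gamma constant exon held 5 runs and 20.3%. Alpha introns held 6.34%, alpha variable or other exons 8.62% and the alpha constant exon 1.49%, or 15 reads in 3 runs. Beta exons held 6.34%. The split between gamma introns and exons turns on 1 run of 111 reads at the start of Pcdhga6: placed by the representative position of each run, gamma introns held 40.2% and gamma variable or other exons 16.7%.

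The run with the most reads lay at the start of Pcdhga6, at chr18:37706981-37707153, where the annotated gene begins at 37707039. The 5 positions of highest summed CPM all lay in it. It held 22, 14 and 27 reads in saline and 15, 20 and 13 in methamphetamine, or 20.9, 33.1 and 16.5 CPM (of the library's peak reads) in saline and 16.5, 20.4 and 21.8 after methamphetamine. Saline replicate 2 was highest, and the treatments overlapped. It was present in every library and stood in neither of the deposited peak lists. Its edgeR change was -0.05 ± 0.50 (SE, adjusted p = 0.9998).

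The gamma constant exon carried the run with the next highest count, at chr18:37841494-37841939 near the 3′ end of the shared untranslated region, a place common to 22 gamma genes. At its leading position it held 9, 3 and 16 reads in saline and 28, 18 and 13 after methamphetamine. As CPM these were 8.54, 7.09 and 9.78 in saline and 30.8, 18.4 and 21.8 after methamphetamine. Every methamphetamine library was above every saline library, an order found in 2.65% of the 10358 positions tested, while 4.84% had the opposite order. All saline values lay below the 10.6 CPM that the count filter asked for in at least 3 libraries. The position was therefore kept only through its methamphetamine libraries, so its order and its p-value are not independent of that choice. The 3 tested member positions with the smallest unadjusted p were all in this run. The leading of them, starting at 37841529, changed by 1.63 ± 0.49 (SE) with an unadjusted p of 0.0112 and an adjusted p of 0.9998 in edgeR, and its change lay between 1.12 and 1.83 under the alternatives.

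No CLIP position of the 10358 tested passed an adjusted p of 0.05 (0% called), and 347 (3.35%) had an unadjusted p under 0.05 by edgeR, with 345 by DESeq2. Of the member positions 54 passed the count filter, all gamma, in 4 runs, and 29 of them, all in the constant-exon run just described, were under 0.05 before adjustment. These 29 positions overlap and share reads, so they are not separate measurements. The remaining tested runs were the start of Pcdhga6, a gamma intron run at chr18:37750494-37750680 (change 1.14, unadjusted p = 0.213) and a constant-exon run at chr18:37840454-37840569 (change 0.11, unadjusted p = 0.898), both by edgeR. The count filter asked for 10.6 CPM in at least 3 libraries, and no alpha or beta position met it. The 3 member positions of smallest p reached that level in methamphetamine libraries only, so their unadjusted p-values come from positions kept for being high in that group. The leading alpha run, in Pcdha5, had 44 reads but exceeded that level in methamphetamine replicate 3 alone.

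Another constant-exon run, at chr18:37840865-37841113, had 0, 0 and 5 reads in saline and 24, 11 and 3 after methamphetamine, of which 55.8% came from methamphetamine replicate 1. The only alpha run that was prominent lay in the coding sequence of Pcdha5 (chr18:36962241-36962405) and had 3, 1 and 11 reads in saline and 7, 6 and 16 after methamphetamine. A run at chr18:37676794-37676953 in a gamma variable exon had 16 of its 34 reads in saline replicate 2. A gamma intron run at chr18:37713311-37713553 had 10, 0 and 14 reads in saline and 1, 5 and 4 after methamphetamine.

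Beta CLIP reads came mostly from methamphetamine replicate 1. Of 64 reads over the 15 beta runs 53 (82.8%) were from that library, which led 10 of the 15 runs, and the other 5 libraries held 3, 5, 2, 1 and 0. In methamphetamine replicate 3 the count of 0 allows up to 5.04 CPM. The RNA level of the beta cluster in the same pool was 191 CPM, inside the range of the other pools, 159 to 211 CPM. The summed beta CLIP level differed by 0.07 (log2, exact permutation p = 0.9, n = 3 each) and by -1.83 without methamphetamine replicate 1.

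Summed over all its positions, the gamma cluster held 854, 1778 and 1136 CPM of CLIP reads in saline and 3020, 1375 and 1836 after methamphetamine. The treatments overlapped, with a log2 difference of 0.71 (exact permutation p = 0.2, n = 3 each), and 0.48 within set A and 0.40 within set B. With 1 position per run it was 0.43. Sums over all positions count the reads of overlapping positions more than once. In methamphetamine replicate 1 the gamma cluster had 2745 reads over all positions and 230 with 1 position per run. The alpha cluster held 77.9, 248 and 133 CPM in saline and 433, 95.9 and 183 after methamphetamine. Its difference was 0.52 (exact permutation p = 0.6, n = 3 each), with -0.08 within set A and 0.18 within set B. With 1 position per run the alpha difference was 0.76 (exact permutation p = 0.4, n = 3 each). Split by library set, the lowest set B sum was 1778 CPM for gamma and 183 CPM for alpha. The highest set A sum was 1375 CPM for gamma and 133 CPM for alpha, so neither cluster overlapped between the sets. The beta sums did overlap. All set B libraries also had fewer peak reads (at most 909091) than any set A library (at least 979878). The part of depth in this order was not tested.

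Relative to RNA, binding was higher in some pools than others. With 1 position per run and shared RNA reads counted once, gamma CLIP CPM divided by RNA CPM gave 0.127, 0.250 and 0.160 in saline and 0.368, 0.158 and 0.222 after methamphetamine. The alpha ratio was 0.1003, 0.253 and 0.276 in saline and 0.488, 0.144 and 0.302 after methamphetamine. Both overlapped between treatments and were highest in methamphetamine replicate 1. For the gamma ratio every set B library (lowest 0.222) exceeded every set A library (highest 0.160). The alpha ratio overlapped between the sets, with saline replicate 3 of set A (0.276) above saline replicate 2 of set B (0.253). The library totals differ in make-up between the assays, so the ratios compare pools and not absolute occupancy.

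The clusters took up a large part of the deposited peak lists when lines were counted. In the authors' deposited tables members took 1940 of 20904 lines (9.28%) of the methamphetamine list and 839 of 18296 lines (4.59%) of the saline list. These lines were 92 of 9903 distinct positions (0.929%) and 49 of 9537 (0.514%). After joining overlapping positions they were 11 of 9568 runs (0.115%) and 10 of 9319 runs (0.107%). A gamma position stood under up to 22 gene names and on up to 46 lines, since a constant exon belongs to all gamma genes.

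**Figure D5:**
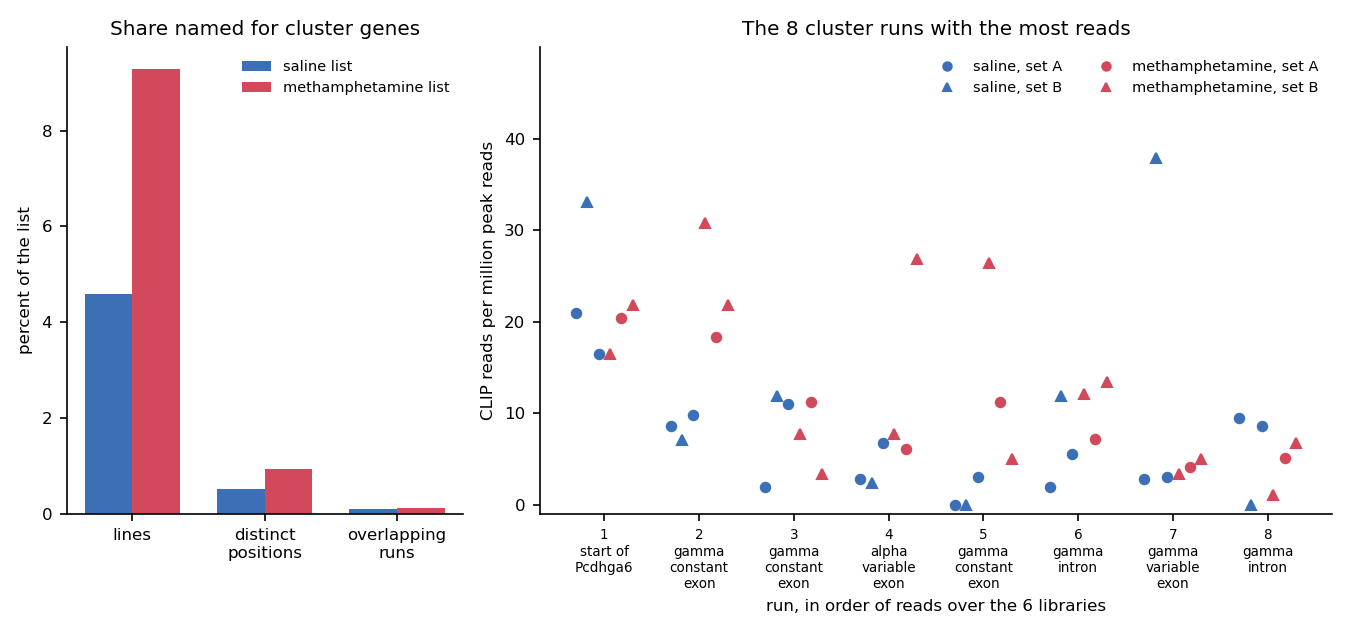
Left, percent of each deposited list (vertical axis) named for cluster genes by line, by distinct position and by run of overlapping positions: 9.28% and 4.59% of lines become 0.115% and 0.107% of runs. Right, CLIP CPM of peak reads (vertical axis) in each library for the 8 member runs with the most reads, where the second run, in the gamma constant exon, has all 3 methamphetamine libraries above all 3 saline libraries.

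The repeated lines also weighed on the make-up of the lists. Of the 3′ untranslated lines in the authors' deposited tables, members held 1703 of 3952 (43.1%) after methamphetamine and 598 of 2237 (26.7%) after saline, though only 68 of 1571 (4.33%) and 22 of 1148 (1.92%) of the distinct positions. With all lines the 3′ untranslated share was 18.9% after methamphetamine and 12.2% after saline, a gap of 6.68 percentage points. Without the cluster lines the shares were 11.9% and 9.39%, a gap of 2.47 points. Both gaps count lines and not distinct positions. By distinct position 1571 of 9903 were 3′ untranslated after methamphetamine and 1148 of 9537 after saline, and only 68 and 22 of these were member positions.

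Between the lists, 63 of 92 methamphetamine positions (68.5%) overlapped a saline position and 32 of 49 saline positions (65.3%) overlapped a methamphetamine position, by at least 1 bp. The joint lists held 17 runs. The constant-exon run at the 3′ end of the gamma genes stood in both, with 43 methamphetamine and 18 saline positions. The constant-exon run starting at 37840880 stood only in the methamphetamine list (22 positions, 575 lines), and the runs starting at 37676794 and 37713334 stood only in the saline list. Every beta run was in only 1 of the lists. Each list was made once per treatment, so replicates cannot be compared within it.

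The authors' signal value, whose scale is not given, was highest for beta positions. In the authors' deposited methamphetamine list Pcdhb21 reached 4.19 at chr18:37517222-37517321, where all 8 reads of the count table came from methamphetamine replicate 1. The highest gamma value there was 2.09, at chr18:37841594-37841693 in the constant exon, and the highest alpha value was 1.81, in the coding sequence of Pcdha5. In the authors' deposited saline list the highest values were 3.24 for Pcdhb15 at chr18:37475941-37476040, 1.83 for the gamma intron run starting at 37713334, and 1.32 for the single alpha position.

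Runs of G, the preferred sequence of hnRNP H, were counted in the listed positions. Of 15 listed member runs with a position inside an exon, 13 (86.7%) held GGG on the transcribed strand of at least 1 listed 100-nt position, against 82.1% of 4031 other listed exonic positions. The member runs can span several positions, which gives each more chances of a match. Counted by position on both sides, the member share was lower, at 58 of 91 (63.7%) against 82.1%. For GGGG the shares by position were 31.9% for members and 49.1% for the others. Member positions overlap, so they are not separate sites. The 3′ constant-exon run held GGG in 19 of 47 positions and GGGG in none, while the constant-exon run listed only after methamphetamine held GGG in 22 of 22 and GGGG in 20. A match is a description of the letters and not a binding site.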

How the data were processed

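The members and gene lists were chosen with earlier results of these data known. RNA-seq values are log2 CPM deposited by the authors on the voom scale, with an offset of 0.5 reads per the values: 100% inverted to whole reads (largest deviation 0.00038, tolerance 0.01). CLIP-seq values are whole-number read counts per 100-nt peak position deposited by the authors, with each position used once however many lines repeat it. The deposited peak lists give a signal score and p-values and q-values per peak, and their test is not given in the sources used here. The submitters' processing notes name Trimmomatic, UMI-tools, STAR, bedtools, Subread, featureCounts, limma and edgeR and the build mm10, without their roles. How reads shared by several genes, or strand, were counted is not given in the sources used here.

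RNA-seq was tested over all 18208 genes with limma 3.58.1 (trended eBayes) on R 4.3.3, and CLIP-seq over positions kept by the count filter (edgeR filterByExpr, here 10.6 CPM in at least 3 libraries) with edgeR 4.0.16 (quasi-likelihood test, TMM), both with Benjamini-Hochberg adjustment at 0.05. DESeq2 1.42.0 served as an alternative. The scripts were tested on simulated data. Cluster sums were compared by an exact two-sided permutation test (scipy 1.17.1), CLIP sums with 0.5 reads added on the log scale. Positions were placed with GENCODE M21 and bedtools 2.31.1. Exon shared between members was taken from that annotation.

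Named genes were the 3 members of each cluster with the highest level per kb of unshared exon, the C-type members, the 5 members with the smallest unadjusted RNA-seq p, the 5 CLIP positions with the most summed CPM, the 3 tested positions with the smallest p and the position with the highest deposited signal per list and cluster. The level per kb was read as reads above the lowest member, a choice made after the values were seen. On total reads the top 3 by level would have held Pcdha5, Pcdhga4 and Pcdhga8 in place of Pcdha11, Pcdhgc3 and Pcdhgc5. Pcdhgc3 and Pcdhgc5 would still have been named as C-type members. Replicate numbers did not pair the samples: deviations of same-numbered libraries correlated at -0.35, -0.82 and -0.49 in RNA-seq. Depth was 3935160 to 5091839 RNA-seq reads and 423057 to 1635338 CLIP peak reads per library, and limits given for a count of 0 (3 counts) cover counting error only. Alternatives were another scaling, offset, filter or tool, the library set as a covariate, a replicate block and leaving out each replicate. Mutant samples were not analysed here. Sequences are not printed.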

Additional observations from a re-analysis of the deposited data

How the results depend on the processing

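No gene and no CLIP position passed the threshold in any alternative tried except CLIP positions without the count filter, where 406 of 147438 were called, none of them a member. With each replicate left out in turn both counts stayed at 0. The cluster sums, as log2 methamphetamine minus saline, ranged over the replicates left out from 0.14 to 0.54 (alpha RNA), -0.24 to -0.11 (beta RNA), -0.084 to 0.13 (gamma RNA), -0.046 to 1.04 (alpha CLIP), -1.83 to 1.23 (beta CLIP) and 0.41 to 0.998 (gamma CLIP). The gamma RNA difference of 0.03 turned negative with the lowest member counted once plus the reads above it (-0.019), with the reads above it alone (-0.048), both added after seeing the data, within library set B (-0.14) and without saline replicate 3 (-0.084). The alpha CLIP difference of 0.52 turned negative within set A (-0.082) and without methamphetamine replicate 1 (-0.046). The beta CLIP difference of 0.07 turned negative with TMM sizes (-0.14), with totals that leave out the 1% highest positions (-0.024), within set A (-0.56) and set B (-0.89), and without saline replicate 1 (-0.076), saline replicate 3 (-0.64) or methamphetamine replicate 1 (-1.83). Counting only listed positions gave CLIP differences of 1.54 (alpha, p = 0.2), 0.68 (beta, p = 0.8) and 1.20 (gamma, p = 0.1, the smallest possible) by the exact permutation test (n = 3 each). The lists were made per treatment from these libraries, with 92 methamphetamine and 49 saline member positions, so this choice of positions is not independent of the outcome. The cause of these shifts was not tested.

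The replicate block left every member and position uncalled, and gave the alpha RNA sum an exact sign-flip permutation p of 0.5 and the beta RNA sum 0.25 (n = 3 pairs). The numbers do not pair the samples.

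Shared positions between the lists fell from 68.5% of the methamphetamine list to 55.4% with an overlap of at least 50 bp and to 46.2% at or above the median signal. Of the saline list they went from 65.3% to 36.4% at or above the median signal and to 89.6% when every line was counted. The first shares and those with 50 bp rest on 92 and 49 positions. At or above the median signal they rest on only 24 of 52 methamphetamine and 4 of 11 saline positions. The share by line is 752 of 839 saline lines.

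Among the named members and positions the sign changed only where the value, given in parentheses, was near 0. Pcdhb17 (0.054) ran from -0.029 to 0.13 over the replicates left out and had -0.0076 with the library set as a covariate. Pcdhb9 (0.032) ran from -0.11 to 0.19 over the replicates left out and had -0.11 with the library set as a covariate. Pcdhgb6 (-0.011) ran from -0.10 to 0.078 over the replicates left out. Pcdhgc3 (0.052) ran from -0.041 to 0.14 over the replicates left out and had -0.012 with the library set as a covariate. Pcdhgc4 (0.038) ran from -0.083 to 0.16 over the replicates left out and had -0.049 with the library set as a covariate. Pcdhgc5 (0.03) ran from -0.10 to 0.16 over the replicates left out and had -0.071 with the library set as a covariate. The CLIP position starting at 37706981 (-0.053) ran from -0.32 to 0.34 over the replicates left out and had 0.0027 with the replicate block. The CLIP position starting at 37707029 (-0.04) ran from -0.32 to 0.36 over the replicates left out and had 0.020 with the replicate block. The other 3 leading positions of that run hold the same counts as the first and gave the same values.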
